A study of Mus musculus with 13 samples.

Results

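The enzymes and partners that write and remove DNA methylation, together with catalytic and core subunits of Polycomb repressive complex 2, were compared between CD4+ T cells that had been kept with islet macrophages and CD4+ T cells alone. The set holds 10 genes, chosen by name: Dnmt1, Uhrf1, Dnmt3a, Dnmt3b, Tet1, Tet2, Tet3, Ezh1, Ezh2 and Eed. All 10 were found among 55774 entries of the count table, and all 10 were among the 15781 genes with enough counts to be tested.

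Naive splenic T cells came from female mice of strain NOD/ShiLtJ that carry the receptor transgenes TcraBDC2.5 and TcrbBDC2.5 (line 1Doi/DoiJ), for a T cell receptor that recognises an antigen of pancreatic beta cells. In the STZ-macrophage co-culture (5 libraries), these T cells spent 96 hours with islet macrophages of NOD donors given a single low dose of streptozotocin (STZ), a toxin that beta cells take up. In the control-macrophage co-culture (4 libraries), the macrophage donors had been given buffer. Donors of both kinds were injected at 4 weeks of age, and islets were taken 10 days later, at 5.5 weeks. The cells alone (4 libraries) were labelled untreated, and the labels do not say whether they were cultured. T cells were sorted after co-culture as live CD45+Thy1.2+CD4+ cells. Replicates are labelled biological. The labels name batches day 1 and day 2 without saying what was done on them. Batch day 1 held 2 STZ-macrophage, 3 control-macrophage and all 4 cells-alone libraries, and batch day 2 held 3 STZ-macrophage libraries and 1 control-macrophage library.

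DNA methylation at CpG sites is copied after replication by DNMT1, which UHRF1 brings to hemimethylated DNA, while DNMT3A and DNMT3B set new methylation. TET1, TET2 and TET3 oxidise methylcytosine, the first step of its removal. Polycomb repressive complex 2 methylates lysine 27 of histone H3 through EZH1 or EZH2, and EED binds that mark and is needed for the complex to work. In T cells EZH2 is known from dividing and activated cells and EZH1 from resting cells. RNA was measured here, not methylation, histone marks or protein.

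Library totals ran from 17312119 to 61267763 counts. T cell genes were abundant in all of them, with a summed level of 8 markers of 7265 to 22330 CPM (counts per 1000000 counts of the library total times its normalisation factor). Of 17 macrophage markers, 16 were seen in cells alone and all 17 in each co-culture, with summed levels of 197 to 380 CPM in STZ-macrophage co-cultures, 279 to 586 CPM in control-macrophage co-cultures and 139 to 339 CPM in cells alone, mostly from Ctss, and Cd14 was at 0 in cells alone. Ctss had a difference of -0.85 between the co-cultures, and the other markers mostly ran the other way: of 15 tested, 12 had a higher fitted level in STZ-macrophage than in control-macrophage co-culture (median log2 difference 1.35, none passed). Against cells alone 7 of the 15 rose in STZ-macrophage co-culture (median 1.77) and 5 in control-macrophage co-culture (median 0.92), and none fell (20.8% and 23.1% of all tested genes rose). The part of macrophage RNA in the values of the 10 genes was not tested. The 11 islet endocrine markers reached 169 CPM in replicate 2 and 146 CPM in replicate 4 of the STZ-macrophage group, and at most 3.33 CPM elsewhere. Control-macrophage replicate 3, the only control library of day 2, stood apart. Its normalisation factor was the lowest (0.745), and its T cell marker sum (22330 CPM), macrophage marker sum (586 CPM) and sum of 6 CD8 T and NK cell markers (718 CPM) were the highest of all libraries. Its levels followed GC content, as did those of other libraries. From lowest to highest of 5 GC bins, the median log2 deviation from the group mean ran from 0.405 to -0.445 in it. It ran from -0.21 to 0.59 in cells-alone replicate 2 and from 0.37 to -0.35 in cells-alone replicate 4. Cells-alone replicate 2 also had the highest normalisation factor (1.30), the lowest total and the lowest T cell marker sum (7265 CPM). Between the co-cultures, the differences of the 10 genes are given with and without control-macrophage replicate 3. With batch day in the model, the fitted changes without that library rest on the libraries of day 1 alone (2 STZ-macrophage and 3 control-macrophage).

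Dnmt1 and Uhrf1, the pair that maintains methylation through division, had the highest mean levels per kilobase of exon of the 10 in both co-cultures and rose against cells alone. In control-macrophage replicate 3 Eed was the highest (54.5 CPM per kb), before Uhrf1 (43.8) and Dnmt1 (25.3). Uhrf1 (GRCm38 chromosome 17, 56303321 to 56323486, plus strand) had 541, 780.5, 584, 578 and 571 CPM in STZ-macrophage co-cultures and 720, 557, 187 and 560 CPM in control-macrophage co-cultures, against 5.42, 5.74, 5.08 and 5.06 CPM in cells alone. Every co-culture library lay far above every library of cells alone, which differed little among themselves. The test was edgeR's quasi-likelihood test with batch day in the model and Benjamini-Hochberg adjustment over all tested genes, and a gene passed at an adjusted p under 0.05. On the log2 scale Uhrf1 rose by 7.14 in STZ-macrophage co-culture (SE 0.40, edgeR adjusted p = 9.56e-08). It rose by 6.62 in control-macrophage co-culture (SE 0.37, edgeR adjusted p = 7.73e-08). The table holds estimated counts, and those of Uhrf1 were not whole in 12 of 13 libraries, so some of its counts are estimates rather than whole reads.

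Dnmt1 (chromosome 9, 20907209 to 20959888, minus strand) had 727, 959, 654, 707 and 763 CPM in STZ-macrophage co-cultures, 965, 761, 187 and 766 CPM in control-macrophage co-cultures and 245, 290, 122 and 148 CPM in cells alone. The STZ-macrophage libraries did not overlap with cells alone, and the control-macrophage libraries overlapped with them through replicate 3 alone. Dnmt1 rose by 2.37 on the log2 scale (SE 0.46, edgeR adjusted p = 0.00129) in STZ-macrophage co-culture and by 1.79 (SE 0.39, adjusted p = 0.00258) in control-macrophage co-culture. Without control-macrophage replicate 3 these changes were 2.11 and 2.12 (edgeR adjusted p = 0.000273 and 0.000125). On the authors' own adjusted log2 values, tested with limma, the Dnmt1 change was 0.98 (adjusted p = 0.0793) in STZ-macrophage co-culture and -0.20 (adjusted p = 0.730) in control-macrophage co-culture, so its rise did not pass there. That fit differed in its values, its test and in having no batch day. edgeR without batch day still called Dnmt1 higher in both co-cultures. The authors' values of Dnmt1 were 12.46 to 13.87 in control-macrophage co-cultures and 13.19 to 14.00 in cells alone. The part of the values and of the test was not tested further.

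Per kilobase of exon, Uhrf1 and Dnmt1 traded places. The Uhrf1 to Dnmt1 ratio was 1.39 ± 0.105 (SD, n = 5) in STZ-macrophage co-cultures and 1.39 ± 0.228 (n = 4) in control-macrophage co-cultures, against 0.0510 ± 0.0180 (n = 4) in cells alone. Control-macrophage replicate 3 had a ratio of 1.73, and the other 3 control libraries had 1.27 to 1.29.

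**Figure D1:**
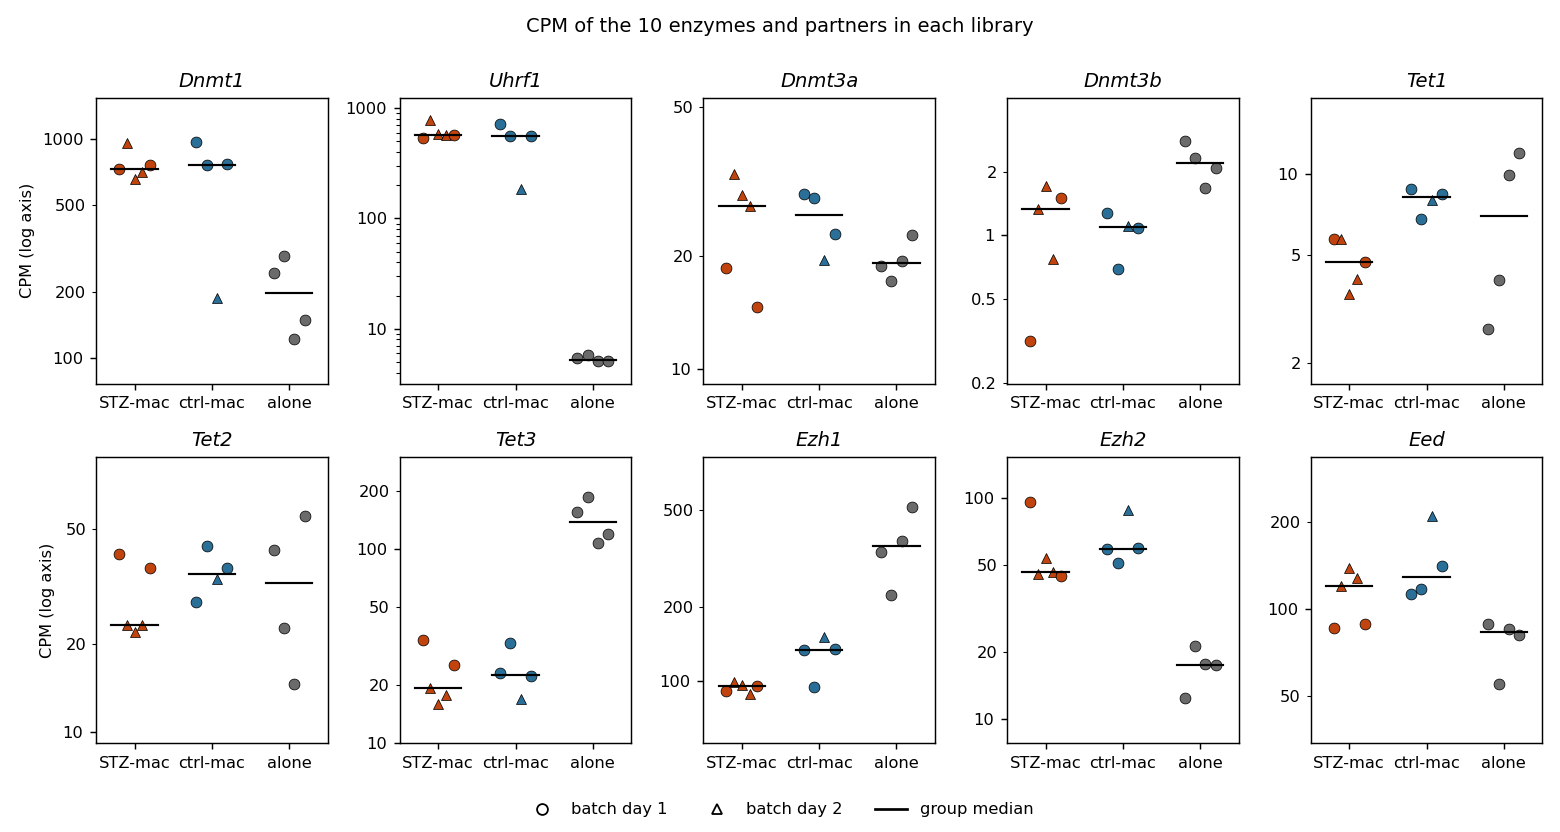
CPM of each of the 10 genes in each library on log axes, with STZ-macrophage co-culture (orange), control-macrophage co-culture (blue) and cells alone (grey) from left to right; circles are batch day 1, triangles batch day 2, and bars are medians. Uhrf1, Dnmt1 and Ezh2 lie higher and Tet3 and Ezh1 lower in co-cultures, and the blue triangle, control-macrophage replicate 3 of day 2, lies low for Dnmt1 (187 CPM) and Uhrf1 (187 CPM) and high for Ezh2 (88.3 CPM) and Eed (209 CPM).

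Dnmt1 and Uhrf1, and Ezh2 described further on, rose against cells alone, as did most genes of a cell-division list. Each of these 3 genes has a promoter that holds letters of the E2F type, the motif of the factors that drive S-phase genes. Promoters were taken from RefSeq on GRCm38.p6, from 250 bases before to 50 bases after each start, and were found for 10 of 10 genes, some with several starts. Of 3 Dnmt1 promoters 1 held a match, of 2 Uhrf1 promoters 1, and the 1 Ezh2 promoter did. The letters TTTCCCGC, TTTCGCGC, TTTGCCGC and TTTGGCGC were searched on both strands. They were in a promoter of 3 of the 10 genes, against 2.60% of 26994 genes and 2.26% of 32817 promoters, and in 7 of 21 genes (33.3%) of the proliferation list that had a promoter. The windows of 80 bases that hold a match are shown so that the letters can be read in their place, with the matched letters, or their reverse complement, in capitals and all written 5′ to 3′ on the gene's strand. The reference is C57BL/6J, not NOD.
Uhrf1, chr17:56304092-56304171, plus strand: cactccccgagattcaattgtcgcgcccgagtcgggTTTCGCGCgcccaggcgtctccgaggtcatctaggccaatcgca
Dnmt1, chr9:20952794-20952873, minus strand: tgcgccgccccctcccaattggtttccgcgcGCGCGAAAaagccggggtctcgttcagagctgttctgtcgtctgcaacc
Dnmt1, chr9:20952574-20952653, minus strand: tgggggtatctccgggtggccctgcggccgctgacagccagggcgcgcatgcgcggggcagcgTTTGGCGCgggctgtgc
Ezh2, chr6:47594984-47595063, minus strand: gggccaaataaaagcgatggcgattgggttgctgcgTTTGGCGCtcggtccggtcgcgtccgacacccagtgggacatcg
The CCAAT box (CCAAT, either strand) was in 5 of the 10 genes, Dnmt1, Uhrf1, Tet3, Ezh2 and Eed, against 41.0% of all genes. The CHR element (TTTGAA, either strand) was in 3 of 10, against 20.2%. A match describes the letters only and shows no binding, and the part of E2F factors in the changes of these genes was not tested.

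The de novo enzymes stayed low, and neither passed the test in any of the 3 comparisons. Dnmt3a (chromosome 12, 3806007 to 3914443, plus strand) had 18.6, 33.2, 29.1, 27.3 and 14.6 CPM in STZ-macrophage co-cultures, 29.3, 28.6, 19.5 and 22.9 CPM in control-macrophage co-cultures and 18.8, 17.2, 19.4 and 22.7 CPM in cells alone. The 3 groups overlapped. Its STZ-macrophage libraries split by batch day, with 27.3 to 33.2 CPM on day 2 and 14.6 to 18.6 CPM on day 1. This split was not particular to Dnmt3a. On day 1 and day 2, these libraries had 36.76 to 41.0 and 22.05 to 23.39 CPM for Tet2. For Tet3 they had 25.28 to 34.16 and 15.92 to 19.22 CPM. Those of Eed and, narrowly, of Uhrf1 did not overlap between the days either. Dnmt3b (chromosome 2, 153649450 to 153687730, plus strand) rested on 13 to 90.9 counts per library. It had 0.319 to 1.71 CPM in STZ-macrophage co-cultures and 0.690 to 1.27 CPM in control-macrophage co-cultures, against 1.67 to 2.79 CPM in cells alone. All control-macrophage libraries lay below all cells alone, and the log2 fold change was -1.18 (SE 0.53, edgeR adjusted p = 0.0856). In STZ-macrophage co-culture it was -1.20 (SE 0.59, edgeR adjusted p = 0.119). Under DESeq2 the control-macrophage change of Dnmt3b passed (-1.13, adjusted p = 0.0439), as it did with library totals as the only scaling (edgeR, -1.50, adjusted p = 0.0308) and in limma on the authors' adjusted values (-1.41, adjusted p = 0.0225). limma on those values also called Dnmt3b lower in STZ-macrophage co-culture (-1.48, adjusted p = 0.0150).

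Per kilobase, Dnmt1 made up 97.7% to 98.9% of the summed Dnmt1, Dnmt3a and Dnmt3b level in STZ-macrophage co-cultures, 94.8% to 98.5% in control-macrophage co-cultures and 91.7% to 96.4% in cells alone.

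Among the demethylating enzymes only Tet3 passed the test, and it fell in both co-cultures. Tet3 (chromosome 6, 83362373 to 83459084, minus strand) had 34.2, 19.2, 15.9, 17.6 and 25.3 CPM in STZ-macrophage co-cultures and 22.9, 32.9, 16.9 and 22.0 CPM in control-macrophage co-cultures, against 155.5, 186, 107 and 119.5 CPM in cells alone. The highest co-culture library (34.2 CPM) lay well under the lowest library of cells alone (107 CPM). Tet3 fell by 2.29 on the log2 scale (SE 0.26, edgeR adjusted p = 1.93e-05) in STZ-macrophage co-culture and by 2.43 (SE 0.24, adjusted p = 6.15e-06) in control-macrophage co-culture.

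Tet2 (chromosome 3, 133463679 to 133545139, minus strand) had 22.1 to 41.0 CPM in STZ-macrophage co-cultures, 28.0 to 43.5 CPM in control-macrophage co-cultures and 14.6 to 55.2 CPM in cells alone, where it varied most. Its log2 fold changes were 0.05 (SE 0.39, edgeR adjusted p = 0.922) and 0.21 (SE 0.37, adjusted p = 0.670) in STZ-macrophage and control-macrophage co-culture. Tet1 (chromosome 10, 62804570 to 62908996, minus strand) was the lowest of the 3 per kilobase, with 5.76, 5.73, 3.60, 4.10 and 4.74 CPM in STZ-macrophage co-cultures, 8.85, 6.83, 8.02 and 8.44 CPM in control-macrophage co-cultures and 2.67, 4.05, 9.93 and 12.03 CPM in cells alone. The 4 cells-alone libraries spanned both co-culture groups, and the change was -0.50 (SE 0.48, edgeR adjusted p = 0.425) in STZ-macrophage and 0.20 (SE 0.45, adjusted p = 0.734) in control-macrophage co-culture. On the authors' adjusted values, limma called Tet1 higher in control-macrophage co-culture (1.32, adjusted p = 0.00217) and Tet2 lower in STZ-macrophage co-culture (-0.80, adjusted p = 0.0251).

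The make-up of the Tet family changed with Tet3. Tet3 made up 37.9% to 42.2% of the 3 genes' level per kilobase in STZ-macrophage co-cultures and 28.7% to 39.5% in control-macrophage co-cultures, against 63.9% to 87.4% in cells alone. The Tet3 to Tet2 ratio per kilobase was 0.773 ± 0.0634 (SD, n = 5) in STZ-macrophage co-cultures and 0.676 ± 0.145 (n = 4) in control-macrophage co-cultures, against 5.40 ± 2.93 (n = 4) in cells alone.

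The PRC2 enzymes moved in opposite directions. Ezh2 (chromosome 6, 47530139 to 47595341, minus strand) had 95.8, 45.1, 53.6, 46.3 and 44.1 CPM in STZ-macrophage co-cultures and 58.7, 50.6, 88.3 and 59.3 CPM in control-macrophage co-cultures, against 12.4, 21.3, 17.7 and 17.5 CPM in cells alone. Both co-culture groups lay above cells alone, with STZ-macrophage replicate 1 and control-macrophage replicate 3 far above the rest. Ezh2 rose by 1.75 on the log2 scale (SE 0.32, edgeR adjusted p = 0.000757) in STZ-macrophage co-culture and by 1.92 (SE 0.32, adjusted p = 0.000357) in control-macrophage co-culture.

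Ezh1 (chromosome 11, 101191115 to 101226463, minus strand) had 90.6, 98.9, 95.7, 88.6 and 95.1 CPM in STZ-macrophage co-cultures and 134, 94.5, 150.5 and 134.5 CPM in control-macrophage co-cultures, against 338.5, 225, 375 and 517 CPM in cells alone. The STZ-macrophage libraries lay close together (SD 4.15 CPM, n = 5), and all co-cultures lay below all cells alone. Ezh1 fell by 2.04 on the log2 scale (SE 0.26, edgeR adjusted p = 5.13e-05) in STZ-macrophage co-culture and by 1.54 (SE 0.24, adjusted p = 0.000217) in control-macrophage co-culture. Per kilobase, Ezh1 had the highest mean of the 10 genes in cells alone (48.9 ± 16.2 CPM per kb, n = 4) and ranked 4 by mean in either co-culture. In cells-alone replicate 2 Dnmt1 was higher than Ezh1 (39.37 and 30.25 CPM per kb).

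Ezh2 made up 33.7% to 54.1% of the summed Ezh1 and Ezh2 level per kilobase in STZ-macrophage co-cultures and 32.8% to 39.5% in control-macrophage co-cultures, against 3.64% to 9.53% in cells alone. Ezh1 stayed the higher of the pair per kilobase in every library but STZ-macrophage replicate 1, where the Ezh2 to Ezh1 ratio was 1.18 and the other 4 libraries of that group had 0.508 to 0.624.

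**Figure D2:**
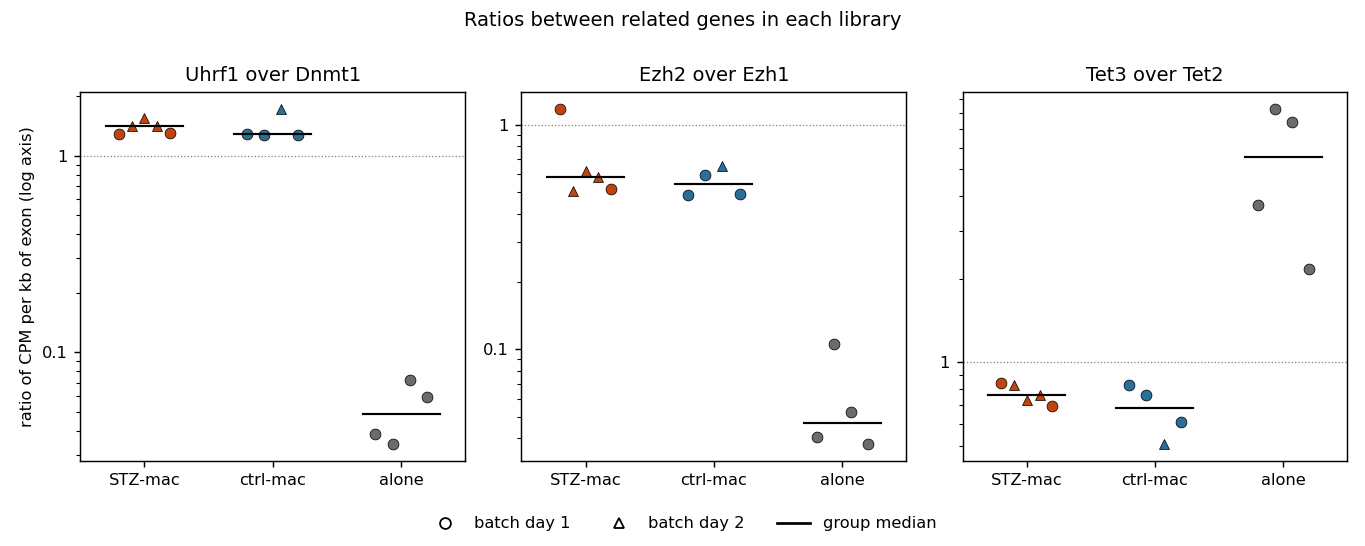
Ratio of CPM per kilobase of exon of Uhrf1 to Dnmt1, Ezh2 to Ezh1 and Tet3 to Tet2 in each library, on log axes, with STZ-macrophage co-culture, control-macrophage co-culture and cells alone from left to right; circles are batch day 1, triangles batch day 2, bars are medians and the dotted line marks equal levels. For each ratio the co-cultures share a range that cells alone do not enter, for example 0.508 to 1.18 and 0.488 to 0.653 against 0.0378 to 0.105 for Ezh2 to Ezh1.

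Eed (chromosome 7, 89954654 to 89980983, minus strand), the subunit that reads the mark, had 85.9, 120.3, 139, 128 and 88.7 CPM in STZ-macrophage co-cultures, 113, 117, 209 and 140.4 CPM in control-macrophage co-cultures and 89.1, 55.2, 85.7 and 81.3 CPM in cells alone. Control-macrophage libraries lay above all cells alone, and STZ-macrophage libraries overlapped with them through both libraries of batch day 1. Eed rose in control-macrophage co-culture by 0.70 on the log2 scale (SE 0.18, edgeR adjusted p = 0.00685), and the change was 0.12 (SE 0.19, adjusted p = 0.638) in STZ-macrophage co-culture. With only control-macrophage libraries and cells alone in the fit, the rise of Eed was 0.66 with adjusted p = 0.0580 by edgeR. Of the exonic bases of Eed, 6.82% overlap a gene on the other strand and the library kit does not keep strand, so its reads cannot be wholly told apart from that gene's. This share was 2.61% for Ezh2 and under 1% for the other 8 genes.

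Over the 10 genes, 3 rose and 2 fell in STZ-macrophage co-culture against cells alone, where 43.1% of all tested genes passed (20.8% higher and 22.3% lower). In control-macrophage co-culture 4 rose and 2 fell, where 45.0% of all tested genes passed (23.1% higher and 22.0% lower). In CPM, 5 of the 10 did not overlap between STZ-macrophage co-cultures and cells alone (39.6% of all tested genes did not) and 6 of the 10 between control-macrophage co-cultures and cells alone (39.8%). These shares of the 10 are near the background of a comparison in which much of the transcriptome moved, so the counts alone do not mark the set out. The median log2 fold change of the 10 was 0.06 in STZ-macrophage and 0.25 in control-macrophage co-culture, beside -0.05 and -0.13 over all tested genes. Both comparisons use the same cells-alone libraries. All cells-alone libraries are of batch day 1, and with the means fitted per day, 3 rose and 2 fell in STZ-macrophage co-culture on day 1 (background 38.8%) and 4 rose and 2 fell in control-macrophage co-culture on day 1 (background 44.9%). On that day Uhrf1 rose by 6.71 and 6.85, Dnmt1 by 1.89 and 2.04, and Ezh2 by 2.02 and 1.71 on the log2 scale in STZ-macrophage and control-macrophage co-culture, and Tet3 fell by 2.26 and 2.45 and Ezh1 by 1.97 and 1.59. Since RNA came from whole sorted populations, a change in the share of cells that express a gene and a change in its RNA per cell cannot be told apart.

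**Figure D3:**
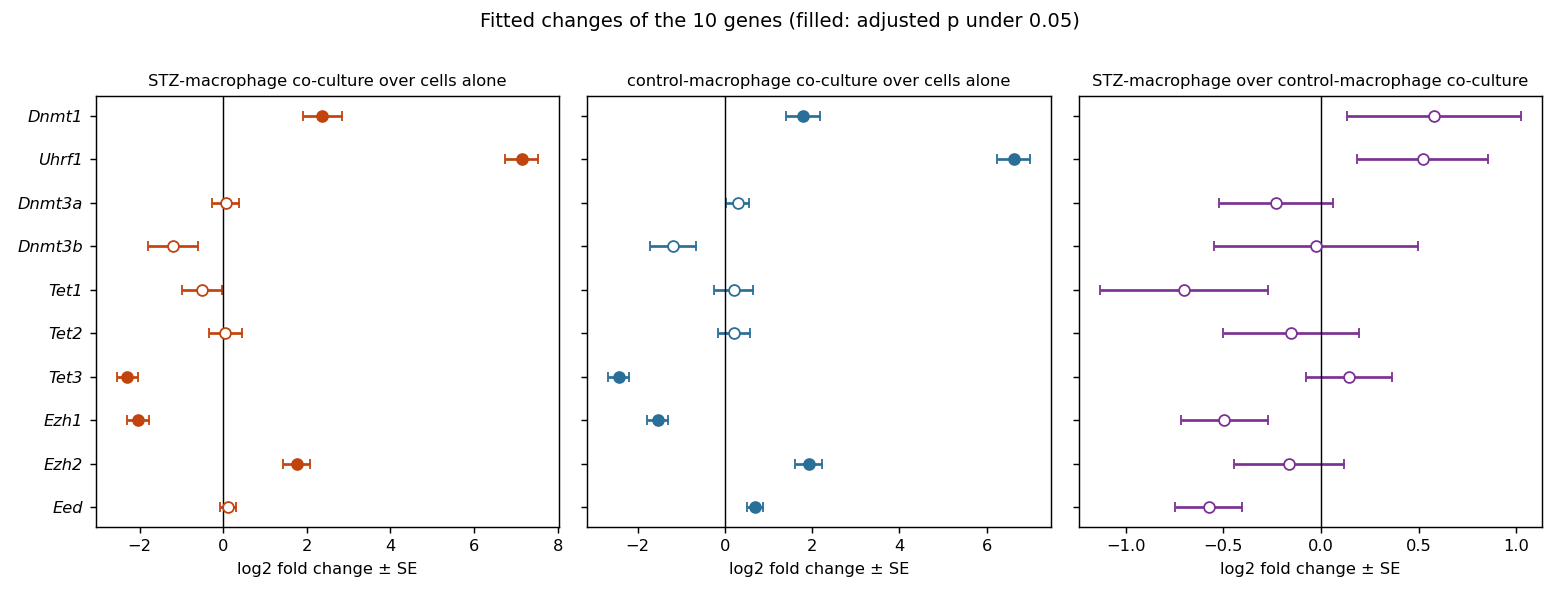
Log2 fold change of each gene with its standard error from the edgeR fit, for STZ-macrophage co-culture over cells alone (left), control-macrophage co-culture over cells alone (middle) and STZ-macrophage over control-macrophage co-culture (right); filled points passed an adjusted p of 0.05 and each panel has its own scale. Uhrf1 has the largest change against cells alone (7.14 and 6.62), and no gene passed between the co-cultures, where the changes lie between -0.70 and 0.58.

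Whether the macrophages' history mattered was asked by comparing the co-cultures, and none of the 10 genes passed the test there (edgeR; 0.323% of all tested genes did). At an unadjusted p under 0.05 there were 2 of the 10, Eed and Ezh1, where 22.8% of all tested genes lay under it, and DESeq2 and limma on the authors' adjusted values called none. Eed differed by -0.57 on the log2 scale (SE 0.17, edgeR adjusted p = 0.147) in STZ-macrophage against control-macrophage co-culture. Without control-macrophage replicate 3 the difference in Eed was -0.34 (edgeR adjusted p = 0.566). With only the co-cultures in the fit, 1498 genes were higher and 1200 lower, and Eed was the 1 gene of the 10 called (-0.39, edgeR adjusted p = 0.0377). Ezh1 differed by -0.50 (SE 0.22, edgeR adjusted p = 0.212), with control-macrophage replicate 2 inside the range of the STZ-macrophage libraries. Without control-macrophage replicate 3 it was -0.23 (edgeR adjusted p = 0.775).

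Tet1 was the 1 gene of the 10 whose CPM did not overlap between the co-cultures. It lay at 3.60 to 5.76 CPM in STZ-macrophage and 6.83 to 8.85 CPM in control-macrophage co-cultures, a pattern that 5.08% of all tested genes shared in this direction and 7.53% in either. Its fitted difference was -0.70 (SE 0.43, edgeR adjusted p = 0.323). Dnmt1 and Uhrf1 differed by 0.58 (SE 0.45, edgeR adjusted p = 0.424) and 0.52 (SE 0.33, adjusted p = 0.343). Both differences were near 0 without control-macrophage replicate 3 (-0.01 and 0.01), where they rest on 2 STZ-macrophage and 3 control-macrophage libraries of day 1. Of the remaining genes, Dnmt3a, Dnmt3b, Tet2, Tet3 and Ezh2 had differences of -0.23 to 0.14 with standard errors of 0.22 to 0.52. Without control-macrophage replicate 3, Ezh2 was 0.48 (beside -0.16), Tet2 0.26 (beside -0.15), Tet3 0.35 (beside 0.14), Dnmt3a -0.55 (beside -0.23), Dnmt3b -0.026 (beside -0.0264) and Tet1 -0.46 (beside -0.70), and none of them passed. All 8 T cell markers had a lower fitted level in STZ-macrophage than in control-macrophage co-culture as well, with a median log2 difference of -0.62 and 7 of 8 at an unadjusted p under 0.05 but none passing (edgeR). Their summed level was 9009 to 12260 CPM in STZ-macrophage co-cultures and 12000 to 22330 CPM in control-macrophage co-cultures, and the part of this shift in the differences of Eed and Ezh1 was not tested. The median over the 10 was -0.16, beside -0.13 over all tested genes.

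Within each batch day the comparison gave other values for the maintenance pair than the fit over both days. The differences without control-macrophage replicate 3 rest on the day-1 libraries, so they are not a check apart from the day-1 values. On day 1, Uhrf1 and Dnmt1 differed by -0.14 (SE 0.20) and -0.16 (SE 0.34) in STZ-macrophage against control-macrophage co-culture, from 2 libraries against 3. On day 2, from 3 libraries against control-macrophage replicate 3 alone, they differed by 1.79 (SE 0.28, edgeR adjusted p = 0.0855) and 2.05 (SE 0.49, adjusted p = 0.139). None of the 10 genes passed within day 1 (background 0.215%) or day 2 (background 0%). The test of the difference between days gave 1.93 (SE 0.34, edgeR adjusted p = 0.203) for Uhrf1 and 2.21 (SE 0.58, adjusted p = 0.272) for Dnmt1, where 0.00634% of tested genes passed. DESeq2 called both (adjusted p = 9.25e-05 and 0.0140), as did edgeR without cells-alone replicate 2 (0.0252 and 0.0424). The day-2 control group is 1 library, so the tests on day 2 and between days take its spread from the other groups, and that library and the day cannot be told apart.

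Control-macrophage replicate 3 was set against the mean of the other 3 control libraries. Dnmt1 lay 2.14 and Uhrf1 1.70 below on the log2 CPM scale, a distance that 6.48% and 10.2% of all tested genes reached. Eed lay 0.77 and Ezh2 0.65 above. With all tested genes in 5 bins of transcript GC content, the bin medians in that library were 0.54, 0.41, 0.28, 0.03 and -0.59, low to high GC. Dnmt1 and Uhrf1 are in bin 4 (54.0% and 53.7% GC). With the GC trend of each library taken out, a setting chosen after seeing the data, the same genes of the 10 were called against cells alone and none between the co-cultures. In the same library, the summed CPM of the 26 proliferation genes (11330) was inside the range of the other control libraries (10280 to 11830).

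**Figure D4:**
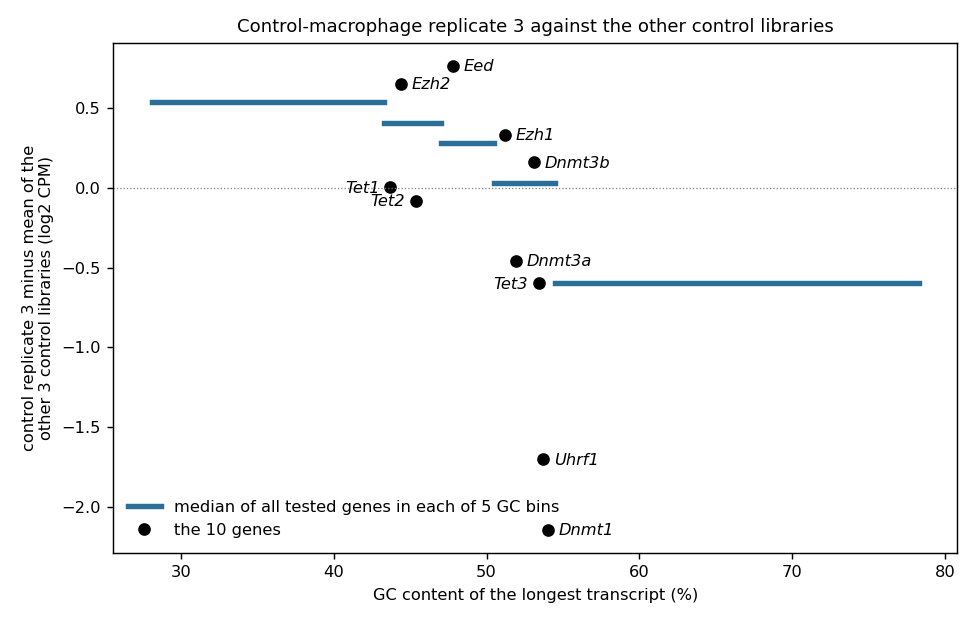
Log2 CPM of control-macrophage replicate 3 minus the mean of the other 3 control-macrophage libraries (y axis) against GC content of the longest transcript (x axis); bars are medians of all tested genes in 5 bins of GC content and points are the 10 genes. The bars step down to -0.59 in the highest bin, and Dnmt1 (-2.14) and Uhrf1 (-1.70) lie far under the bar of their own bin.

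Genes that work with the 10 were then described by list. Over all tested genes, 20.8% rose and 22.3% fell in STZ-macrophage co-culture, and 23.1% rose and 22.0% fell in control-macrophage co-culture. Counts near these shares do not mark a list out. Of 26 genes of cell division, 25 rose in STZ-macrophage and 24 in control-macrophage co-culture, and none fell (edgeR, adjusted p under 0.05). Their median log2 fold changes were 5.19 and 5.41. The summed CPM of this list was 9206 to 11450 in STZ-macrophage co-cultures, 10280 to 11830 in control-macrophage co-cultures and 595 to 700 in cells alone. Bub1, a mitotic checkpoint kinase, had no count in cells alone and was at least 12700-fold and 16800-fold higher in the STZ-macrophage and control-macrophage co-culture, against a floor of 3 counts over the cells-alone group. Birc5 (survivin), Tk1 (thymidine kinase) and E2f8 (a transcription factor of S phase) also rose. Tk1, for example, had 151 to 243 CPM in STZ-macrophage and 213 to 348 CPM in control-macrophage co-cultures, against 1.26 to 3.28 CPM in cells alone. Of 15 tested genes of quiescence, 12 fell and 1 rose in STZ-macrophage co-culture and 11 fell and 1 rose in control-macrophage co-culture, among them Btg1 (-3.42 and -2.73) and Foxp1 (-1.89 and -1.74). The part of cell division in the changes of the 10 genes was not tested.

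Of 9 tested cofactors of methylation, 3 rose and 2 fell in STZ-macrophage co-culture and 4 rose and 3 fell in control-macrophage co-culture, with medians of -0.24 and -0.52. The share of all tested genes that passed was 43.1% and 45.0%. Cdca7 and Hells, which form a remodelling complex needed for methylation, rose by 3.18 and 4.57 in STZ-macrophage and by 3.66 and 3.88 in control-macrophage co-culture (edgeR adjusted p at most 5.36e-06). Lig1, the ligase that joins replicated DNA and binds UHRF1, rose by 2.83 and 3.12. Uhrf2, the paralogue of Uhrf1, fell in both, by 1.67 on the log2 scale in each (edgeR adjusted p = 0.000734 and 0.000513).

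Of 10 readers of methylcytosine, 1 rose and 2 fell in STZ-macrophage co-culture and 2 rose and 5 fell in control-macrophage co-culture, with medians of -0.63 and -1.02. For this list and the next, the background was again 43.1% and 45.0% of all tested genes. Mbd4, a glycosylase that repairs deaminated methylcytosine, rose by 1.43 and 2.11. Zbtb4 and Zbtb38, zinc finger proteins that bind methylated DNA, fell by 3.06 and 2.12 in STZ-macrophage and by 2.86 and 2.05 in control-macrophage co-culture. Of 12 tested partners of demethylation, 4 rose and 1 fell in STZ-macrophage co-culture and 3 rose and 3 fell in control-macrophage co-culture, with medians of 0.22 and -0.38. Tdg, the glycosylase that removes oxidised methylcytosine, rose by 1.41 and 1.31, and Idh3a, a subunit of the mitochondrial isocitrate dehydrogenase, by 1.24 and 1.53.

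Of 11 other PRC2 genes, 3 rose and 2 fell in STZ-macrophage co-culture and 3 rose and 3 fell in control-macrophage co-culture, with medians of 0.18 and -0.12. The background was 43.1% and 45.0% of all tested genes, so these counts do not mark the list out. Rbbp4 and Rbbp7, histone-binding subunits, rose by 0.99 and 1.97 in STZ-macrophage and by 1.13 and 1.75 in control-macrophage co-culture. On the authors' adjusted values limma gave 0.52 (adjusted p = 0.0554) for Rbbp4 and 0.79 (adjusted p = 0.0663) for Rbbp7 in control-macrophage co-culture, and neither passed. Phf19, an accessory subunit that guides the complex, had 8.43 to 16.9 CPM in STZ-macrophage and 5.49 to 18.9 CPM in control-macrophage co-cultures, against 0 to 0.644 CPM in cells alone, and its relative Phf1 had 1.12 to 12.5 CPM and 1.11 to 5.50 CPM, against 16.0 to 197 CPM. Both passed, in opposite directions. Suz12, a core subunit picked with its values known, had changes of -0.31 (SE 0.25, edgeR adjusted p = 0.341) and -0.03 (SE 0.24, adjusted p = 0.932).

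Of 22 genes of Polycomb repressive complex 1, 3 rose and 7 fell in STZ-macrophage co-culture and 1 rose and 9 fell in control-macrophage co-culture, with medians of -0.43 and -0.93. For this list and those that follow, the background was 43.1% and 45.0% of all tested genes (22.3% and 22.0% lower). Cbx7, a subunit that binds methylated lysine 27, had 2.08 to 2.93 CPM in STZ-macrophage and 2.28 to 3.57 CPM in control-macrophage co-cultures, against 32.9 to 44.0 CPM in cells alone, and fell by 3.83 and 3.69 on the log2 scale (edgeR adjusted p = 7.47e-07 and 3.91e-07). Pcgf6 and Rnf2, the ubiquitin ligase of the complex, fell too, and Pcgf5 rose (0.90 and 1.00). The fall of Rnf2 in STZ-macrophage co-culture (-0.93) did not pass under 5 alternatives, among them no filter on low counts (edgeR adjusted p = 0.0972), GC correction (0.0587) and leaving out cells-alone replicate 3 (0.0564). Of 8 tested erasers of Polycomb marks, none rose, 3 fell in STZ-macrophage and 5 in control-macrophage co-culture, with medians of -0.73 and -0.96. Kdm6b, a lysine 27 demethylase, fell by 2.86 and 2.99, and Mysm1, a histone H2A deubiquitinase, by 2.06 and 1.33. On the authors' adjusted values limma gave Mysm1 -0.42 (adjusted p = 0.178) in control-macrophage co-culture. Of 23 other histone methyltransferases, 4 rose and 12 fell in STZ-macrophage and 4 rose and 13 fell in control-macrophage co-culture, with medians of -0.95 and -1.01. Kmt2a (-2.32 and -2.19) and Ash1l (-2.60 and -2.04), which methylate other lysines of histone H3, fell, and Nsd2, which writes dimethylation of lysine 36, rose (3.89 and 3.92). None of the genes of these 9 lists was called between the co-cultures (edgeR). Btg2, an antiproliferative gene, had the smallest adjusted p of those named there, with a difference of -1.02 (edgeR adjusted p = 0.0585). Btg2 passed by DESeq2 (adjusted p = 0.0126), by limma on the authors' adjusted values (0.0424), with only the co-cultures in the edgeR fit (0.00628) and without cells-alone replicate 2 (0.0174) or 4 (0.0495). Hells passed without control-macrophage replicate 3 (1.54, edgeR adjusted p = 0.0499), where the difference rests on the day-1 libraries. Kdm2b of PRC1 passed there too (2.40, edgeR adjusted p = 0.0376). Jarid2, a PRC2 gene, passed by DESeq2 (1.55, adjusted p = 0.0206) and by limma on the authors' adjusted values (2.09, 0.0347). Gadd45g, a demethylation partner, passed by both (3.03 and 3.29, adjusted p = 0.0461 and 0.0199). Pcgf2 of PRC1 passed by DESeq2 (2.06, adjusted p = 0.0259). These were higher in STZ-macrophage co-culture, and Slfn2, a quiescence gene, was lower by limma (-0.86, adjusted p = 0.0486). Mbd4, Phf1, Mysm1, Bub1 and Tk1 were among those that passed with only the co-cultures in the fit.

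**Figure D5:**
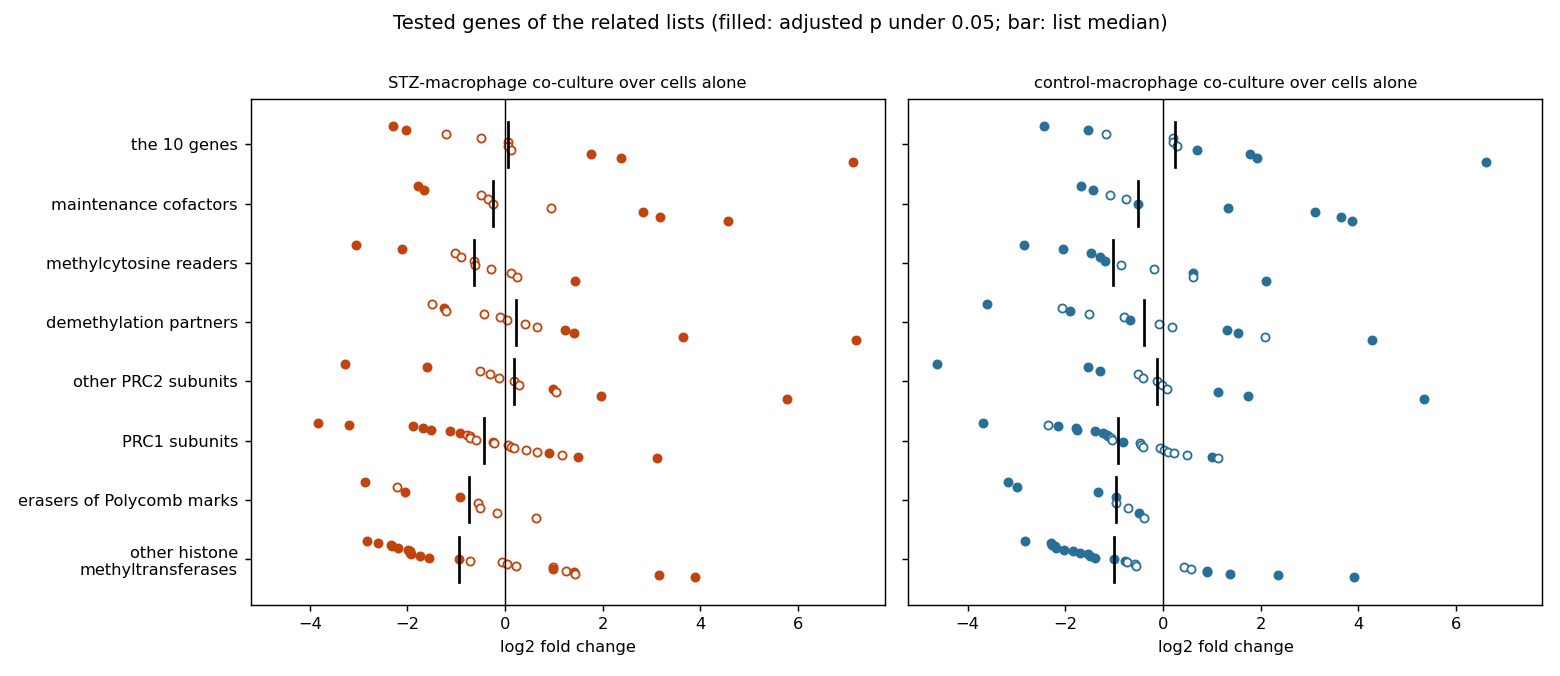
Log2 fold changes of the tested genes of 8 lists, with STZ-macrophage co-culture over cells alone on the left and control-macrophage co-culture over cells alone on the right; filled points passed an adjusted p of 0.05 and black bars are list medians. The medians of PRC1 subunits (-0.43 and -0.93) and of other histone methyltransferases (-0.95 and -1.01) lie below 0, and the 10 genes spread to both sides.

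Genes that these enzymes are known to silence were read as well. Of 15 germline genes kept silent by DNA methylation in other mouse tissues, 8 had no count in any library and 14 stayed under 1 CPM in every library, the highest value being 1.30 CPM for Brdt. The 15 genes summed to 0.354 to 1.41 CPM in STZ-macrophage co-cultures, 0.0689 to 0.989 CPM in control-macrophage co-cultures and 0.444 to 1.41 CPM in cells alone, so no difference was detectable at this depth. Of 8 tested genes that EZH2 is known to hold down in T cells, 6 rose and 1 fell in STZ-macrophage co-culture and 5 rose and 1 fell in control-macrophage co-culture, with medians of 4.25 and 4.82 (20.8% and 23.1% of all tested genes rose). The 1 gene that fell in both was Prdm1, picked with its values known, which encodes the repressor Blimp-1 (-1.52 and -2.09). Ifng, the interferon gamma gene, had no count in cells alone and was at least 2810-fold higher in STZ-macrophage and 864-fold higher in control-macrophage co-culture. Il10 was at least 360-fold and 127-fold higher. Foxp3, the regulatory T cell factor, had 5.29 to 20.2 CPM in STZ-macrophage and 14.95 to 107 CPM in control-macrophage co-cultures, against 0.502 to 1.99 CPM in cells alone. The Foxp3 difference between the co-cultures was -2.51 (SE 0.84, edgeR adjusted p = 0.160). It passed by DESeq2 (-2.41, adjusted p = 0.00561) and by edgeR without control-macrophage replicate 3 (-3.46, adjusted p = 0.0358), where it rests on the day-1 libraries.

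Markers of other cells differed between the groups as well. Of 8 B cell markers, all were seen in STZ-macrophage co-cultures and in cells alone, and Pax5 was at 0 in control-macrophage co-cultures. Their summed level, nearly all from Ighm, was 150 to 198 CPM in STZ-macrophage co-cultures, 594 to 767 CPM in control-macrophage co-cultures and 723 to 1671 CPM in cells alone. Cd79a, a defining marker, had 0.392 to 0.771 CPM, 0.551 to 1.42 CPM and 5.65 to 10.9 CPM in the same groups. Of 6 stromal and endothelial markers, the summed level was 63.9 to 88.4 CPM in STZ-macrophage co-cultures, 180 to 278 CPM in control-macrophage co-cultures and 95.5 to 290 CPM in cells alone, nearly all from Pecam1, with Cdh5 at 0 throughout. Of 6 CD8 T and NK cell markers the sum was 214 to 474 CPM, 130 to 718 CPM and 69.7 to 148 CPM, mostly from Nkg7 in the co-cultures, with Ncr1 at 0 in control-macrophage co-cultures and cells alone. Ighm and Pecam1 were lower in STZ-macrophage than in control-macrophage co-culture (edgeR adjusted p = 0.00870 and 0.0437). The part of these cells in the values of the 10 genes was not tested.

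Across the 13 libraries, the genes most like each of the 10 in log2 CPM were found among 7407 candidates, as a description, since all points share the contrast with cells alone. Anln was among the genes most like Uhrf1 (r = 0.995), and Ezh2 was most like Nucks1 and Brca2 (r = 0.9703 and 0.958) and Dnmt1 most like Eml2 and Ogfr (r = 0.990 and 0.985). Brca2 acts in repair by recombination and Anln in cytokinesis. Ezh1 was most like Rictor and Klhl6 (r = 0.989 for both) and Tet3 like Bcl9l and Tnrc6c (r = 0.988 and 0.986), and Cenpx was among the genes most like Eed (r = 0.987). For the low genes the likeness was weaker, with r of 0.845 and 0.832 for Dnmt3a (Setdb1 and Xpo5), 0.8405 and 0.815 for Dnmt3b (Foxk1 and Mphosph8), 0.868 and 0.866 for Tet1 (Ssbp2 and Idh1) and 0.717 and 0.6995 for Tet2 (Aida and Snx32). Among the 10 themselves, Dnmt1 and Uhrf1 had r = 0.874 over the 13 libraries and 0.988 over the 9 co-cultures, where control-macrophage replicate 3 is the low point for both. Uhrf1 and Ezh2 had r = 0.874 over the 13 libraries and -0.615 over the 9 co-cultures.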

How the data were processed

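RNA of sorted CD4+ T cells was sequenced in 13 libraries; per the labels' protocols, cDNA was made with a SMARTer Ultra Low kit and reads were aligned to GRCm38. The sources used here name no aligner or counting tool, and the submitters' processing notes name DESeq2. The authors deposited estimated counts per gene (11.0% of the values are not whole), which were rounded here, and a table of adjusted log2 values for 12236 genes. The name of the latter holds the letters sva (surrogate variable analysis), and the adjustment is not otherwise stated.

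Genes were kept by edgeR's filterByExpr (minimum count 10), scaled by TMM and tested in edgeR 4.0.16 (R 4.3.3) with group and batch day as terms over all 13 libraries. Within-day values came from a fit with a mean per group and day. Calls were made at a Benjamini-Hochberg adjusted p under 0.05. CPM used the same scaling, log2 CPM a prior count of 2, and lengths, positions and GC content came from GENCODE annotation of GRCm38. Kilobases of exon were taken over all annotated exons of a gene, so ranks, shares and ratios between genes rest on that length. limma 3.58.1 on the adjusted log2 table, with no term for batch day, and DESeq2 1.42.0 were alternatives. The fit was also run on simulated counts that held no day effect, GC trend or outlying library, so that run cannot speak to those. The edgeR p-values set each fitted difference against the spread between these libraries, estimated over all groups together.

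The 10 genes and the gene lists were chosen with earlier results of these data known. All 10 genes are named, and of each list up to 4 tested genes per comparison with the smallest unadjusted p, unless stated otherwise. Likeness candidates had a mean log2 CPM of at least 3 and were neither gene models, receptor or immunoglobulin segments nor mitochondrial. A few genes that this rule or a marker list holds are not reported here. Same-numbered control-macrophage and cells-alone libraries deviated together (r = 0.161 to 0.352 over genes in 4 pairs), but a pair with different numbers reached 0.433. Same-numbered STZ-macrophage and cells-alone libraries did not all deviate together (-0.415 to 0.331), nor did those of STZ-macrophage and control-macrophage co-culture (-0.202 to 0.474). Neither the labels nor these values settle whether a shared number marks a pair.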

Additional observations from a re-analysis of the deposited data

Results flagged for a closer look

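In 57 groups of values (30 of them CPM of the 10 genes), 4 held a library far from the others of its group, where chance gives about 1 in 20. Uhrf1 was 780.48 CPM in STZ-macrophage replicate 2 and 540.9 to 584.0 CPM in the other 4 libraries of that group. Ezh2 was 95.771 CPM in STZ-macrophage replicate 1 and 44.13 to 53.61 CPM in the other 4. The Ezh2 to Ezh1 ratio per kilobase was 1.1777 in the same library and 0.508 to 0.624 in the other 4. The Uhrf1 to Dnmt1 ratio per kilobase was 1.7304 in control-macrophage replicate 3 and 1.266 to 1.292 in the other 3 libraries of that group.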

How the results depend on the processing

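Against cells alone, the calls of Uhrf1, Ezh2, Tet3 and Ezh1 held under every alternative run and without each library in turn, and those of Dnmt1 under all but limma on the authors' adjusted log2 values. Between the co-cultures the count of called genes was unstable (24 higher and 27 lower). It was 38 higher with library totals, 50 higher and 14 lower without the filter, 2 and 17 without the day term, 442 and 232 by DESeq2, 344 and 133 by limma, 1498 and 1200 with only the co-cultures in the fit, and 0 and 0 without STZ-macrophage replicates 2 and 4. DESeq2 size factors gave 14 lower and GC correction, added after seeing the data, 13 lower. Leaving out 1 library gave 0 to 351 higher and 0 to 231 lower, with the most without cells-alone replicate 2 (351 and 231) and none without control-macrophage replicate 4 or STZ-macrophage replicate 1 or 5. With only the co-cultures, 1 of the 10 genes was called lower.

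Small differences between the co-cultures changed sign, and the cause was not tested. The median of all tested genes moved too, from -0.13 in the main fit to 0.068 with library totals and 0.028 without the filter. It was 0.056 with only the co-cultures and 0.042 without STZ-macrophage replicates 2 and 4. It stayed negative with DESeq2 size factors (-0.029), by DESeq2 (-0.028), without the day term (-0.053) and with GC correction (-0.12). With library totals, Dnmt3b was 0.17, Tet2 0.051 and Ezh2 0.0503. Without the filter these were 0.15, 0.0439 and 0.0394, with only the co-cultures 0.15, 0.0402 and 0.0349, and without STZ-macrophage replicates 2 and 4 they were 0.22, 0.0694 and 0.19, with Suz12 at 0.0026. Dnmt3b was 0.066 with DESeq2 size factors, 0.0702 by DESeq2 and 0.12 without the day term, where Tet3 was -0.0773. Dnmt3a was 0.14 by limma. GC correction gave Tet2 0.0156, Tet3 -0.0094, Ezh2 0.0198 and Mbd6 -0.20. Leaving out 1 library gave Dnmt1 -0.0077 to 0.96, Dnmt3a -0.55 to 0.0381, Dnmt3b -0.71 to 0.38, Ezh2 -0.61 to 0.48 and Tet2 -0.26 to 0.26.

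In control-macrophage co-culture against cells alone, library totals moved the median of all genes to -0.45, beside -0.13 under TMM, and gave Dnmt3a -0.0062, Tet1 -0.0947 and Tet2 -0.092. limma gave Dnmt1 -0.20 and Tet2 -0.69. Leaving out 1 library gave Tet1 -0.0624 to 0.57 and Tet2 -0.0091 to 0.55. With only these groups in the fit, 2421 genes were higher, against 3641. In STZ-macrophage co-culture against cells alone, library totals gave Dnmt3a -0.0501 and Tet2 -0.041, only these groups Dnmt3a -0.17, GC correction Dnmt3a -0.14 and no day term Tet2 -0.20. limma gave Tet1 0.68 and Tet2 -0.80 and called 4 of the 10 lower. Leaving out 1 library gave Dnmt3a -0.019 to 0.37 and Tet2 -0.0903 to 0.43. Without STZ-macrophage replicates 2 and 4, 2330 genes were lower, against 3519.

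For the difference between days, DESeq2 called 311 genes higher and 87 lower, 2 of the 10 higher. Library totals called 0 lower and gave Tet3 0.0639, and GC correction gave Tet1 0.0176. Leaving out 1 library gave 0 to 93 genes higher, 0 to 150 lower and 0 to 2 of the 10 higher, the most without cells-alone replicate 2, with Dnmt3b -0.37 to 1.86 and Tet3 -0.34 to 0.10.

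The replicate block changed no call of the 10 genes. Between the co-cultures it left 0 genes higher and 0 lower, with Dnmt3a 0.0122 and Ezh2 0.067. In STZ-macrophage co-culture against cells alone 1938 were higher and 1538 lower, with Tet1 0.12 and Tet2 -0.21, and Uhrf2 and Rnf2 no longer passed (edgeR adjusted p = 0.0598 and 0.155). For the difference between days it left 0 lower and gave Eed 0.0382. The replicate block with GC correction gave 0 higher and 0 lower between the co-cultures, with Tet3 -0.0146, Ezh2 0.17 and Mbd6 -0.20. Against cells alone it gave 1793 higher and 1708 lower in STZ-macrophage co-culture, with Tet1 0.13 and Tet2 -0.27, and Rbbp4 no longer passed (edgeR adjusted p = 0.108). For the difference between days it gave 0 lower and Eed 0.20. Whether libraries with the same number are pairs is not known, so the block may not follow a real pairing.

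Dnmt3b rested on 13 to 90.9 counts per library, which limits its precision. No cells-alone library is of batch day 2, and 1 control library stands for that day.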
